A study of Mus musculus with 18 samples.

Results

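The 7 genes described here are Txnip, its arrestin-domain relatives Arrdc2, Arrdc3 and Arrdc4, and the glucose-sensing transcription factors Mlxip (MondoA), Mlxipl (ChREBP) and their shared partner Mlx. They are 7 of 21647 genes in a count table of mouse RNA sequencing, taken by matching each Ensembl identifier to its symbol. They were chosen by name after their read counts with shear and genotype in these same libraries had been seen. Their levels and differences are therefore given as descriptions, with standard errors (SE) and without a test.

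The cells were embryonic aortic endothelial cells in culture, either wild-type (WT) or Tg737orpk/orpk (orpk), which carries an insertion in Ift88, a gene needed to build cilia. Each genotype was kept static or exposed to laminar shear of 2 or 30 dyn/cm2 for 48 h, giving 6 groups of 3 libraries. All groups shared the gelatin coating and the medium, and cells were serum starved for 24 h before flow. No source used here gives a promoter-driven transgene, the number of animals or isolations behind a genotype, or whether replicates were separate cultures.

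Txnip encodes an arrestin-fold protein that binds thioredoxin and promotes the uptake of the glucose transporter GLUT1 from the cell surface into endosomes. When glucose-6-phosphate accumulates, the heterodimer of MondoA or ChREBP with Mlx enters the nucleus and binds the carbohydrate response element of target genes, of which Txnip and Arrdc4 are the best known. In cultured endothelium, steady laminar flow is known to lower Txnip. The arrestin-domain proteins carry short motifs through which they recruit NEDD4-family ubiquitin ligases to membrane cargo.

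The stretches just before the first annotated base of the 4 arrestin-domain genes are shown here. They differ in whether they hold the letters searched for as the carbohydrate response element. They are RefSeq sequence of GRCm38.p6, read 5′ to 3′ on the strand of the gene. Capitals mark a match on either strand to any of 4 motifs. These are the carbohydrate response element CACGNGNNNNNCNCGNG, the E-box CACGTG, the CCAAT box (CCAAT) and the FOXO site GTAAACA. Either end of the response element becomes an E-box where its letters spell CACGTG.
Txnip, chr3:96557707-96557956, plus strand: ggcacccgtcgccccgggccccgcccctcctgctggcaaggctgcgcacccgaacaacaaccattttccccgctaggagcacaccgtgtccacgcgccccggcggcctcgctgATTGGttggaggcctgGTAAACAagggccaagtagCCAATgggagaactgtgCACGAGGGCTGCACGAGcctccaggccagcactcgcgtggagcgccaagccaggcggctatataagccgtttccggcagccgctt
Arrdc4, chr7:68749242-68749488, minus strand: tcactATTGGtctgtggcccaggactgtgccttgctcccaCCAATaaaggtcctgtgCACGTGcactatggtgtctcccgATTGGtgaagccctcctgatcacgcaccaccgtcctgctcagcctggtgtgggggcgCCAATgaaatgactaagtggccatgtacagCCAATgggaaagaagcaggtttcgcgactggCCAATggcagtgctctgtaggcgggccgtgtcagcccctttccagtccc
Arrdc3, chr13:80883134-80883383, plus strand: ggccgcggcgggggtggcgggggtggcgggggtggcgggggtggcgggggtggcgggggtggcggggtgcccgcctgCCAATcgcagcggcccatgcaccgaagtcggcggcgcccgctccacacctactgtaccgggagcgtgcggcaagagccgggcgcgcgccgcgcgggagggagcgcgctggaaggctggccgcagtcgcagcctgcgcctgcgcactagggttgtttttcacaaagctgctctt
Arrdc2, chr8:70839721-70839970, minus strand: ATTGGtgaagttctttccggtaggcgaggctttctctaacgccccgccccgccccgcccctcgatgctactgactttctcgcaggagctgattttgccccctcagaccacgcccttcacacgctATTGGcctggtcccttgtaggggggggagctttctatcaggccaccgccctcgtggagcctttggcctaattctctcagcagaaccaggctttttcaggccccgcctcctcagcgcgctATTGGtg

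Windows of 300 bases, 250 before to 50 after the start, were searched for all 7 genes. The Txnip window held the carbohydrate response element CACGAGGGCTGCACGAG at chr3:96557872-96557888, its first base 85 bases before the start. That element was present in 120 of 32817 windows of this length in the table (0.366%). The Txnip window also held 2 CCAAT boxes and 1 GTAAACA, which were present in 37.4% and 3.65% of windows. The Arrdc4 window held 1 CACGTG at chr7:68749426-68749431 and 6 CCAAT boxes, and CACGTG was present in 7.15% of windows. Of the first windows of Arrdc3 and Arrdc2, the former held 1 CCAAT box and the latter 3, and neither held one of the other 3 motifs. Mlx held 1 CACGTG and 2 CCAAT boxes, Mlxip 2 CCAAT boxes, and 1 of the windows of Mlxipl held 1 CACGTG and 1 CCAAT box. A match describes letters and is not a measured binding site, and a missing match says only that those letters were not in that window.

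Library totals ran from 13626480 to 17387553 counts, and 13058 genes passed the filter on low counts, 6 of the 7 members among them. Values are CPM, read counts scaled to the effective library size by edgeR's trimmed mean of M-values, and ± is the SD of 3 libraries unless it follows a log2 fold change. Ift88 was at 12.8 to 17.4 CPM in WT libraries and 6.37 to 8.46 CPM in orpk libraries. Several defining markers of the labelled cell type were absent: of 14 endothelial markers, Cdh5, Tie1, Erg and Sox17 had 0 reads in every WT group and Cldn5 and Sox17 in every orpk group. The 14 together summed to 27.1 to 54.7 CPM in WT and 93.7 to 149 CPM in orpk libraries. Flt1 was the largest part of these sums, averaging 40.4 CPM in static WT and 93.6 CPM in static orpk cells. Pecam1 and Egfl7 were lower in static orpk (0.414 and 4.25 CPM) than in static WT cells (1.27 and 10.9 CPM). Of 10 tested endothelial markers, 8 were higher and 2 lower in orpk in static culture. The 10 fibroblast markers summed to 717 to 1160 CPM in WT and 26300 to 41400 CPM in orpk libraries, and all 10 were higher in orpk in each genotype comparison. In static WT cells Col1a1 averaged 992 CPM of that sum, and Pdgfra, Lum, Dpt, Thy1 and Fap were each under 1 CPM. Summed smooth muscle and pericyte markers ran from 50.5 to 130 CPM in WT and from 937 to 3770 CPM in orpk. Acta2 was the largest part in orpk, averaging 659 CPM in static culture and 2010 CPM at 30 dyn/cm2. Myh11 and Rgs5 were under 1 CPM in every group. Epithelial and mesothelial markers summed to 356 to 575 CPM in WT and 158 to 301 CPM in orpk, and leukocyte markers to between 13.2 and 57.4 CPM. Of 8 tested epithelial and mesothelial markers, 2 were higher and 6 lower in orpk in static culture. Epcam, Krt8, Krt18, Cdh1, Upk3b and Krt7 were each under 1 CPM in static orpk cells, and Cdh1 and Wt1 in static WT cells. The part of these cell types in the differences between genotypes was not tested, and in bulk RNA fewer cells of a type and less RNA per cell cannot be told apart. WT 2 dyn/cm2 replicate 1 and orpk 2 dyn/cm2 replicate 2 stood apart from the others of their groups (chi-square per degree of freedom 6.1 and 7.43 against 1.42, and 3.28 and 3.66 against 1.55).

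Txnip (ENSMUSG00000038393, GRCm38 chr3:96557957-96561883) was high in orpk cells under static culture and low shear and lowest in orpk cells at 30 dyn/cm2. In WT it stood at 34.3, 41.3 and 35.1 CPM in static culture, 38.6, 37.1 and 37 CPM at 2 dyn/cm2, and 22.4, 23.8 and 21 CPM at 30 dyn/cm2. In orpk it stood at 160, 162 and 177 CPM in static culture, 326, 399 and 307 CPM at 2 dyn/cm2, and 19.9, 17.1 and 19 CPM at 30 dyn/cm2. Static WT and WT at 2 dyn/cm2 overlapped, and the remaining neighbours in the order of levels did not.

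In WT, the 3 libraries at 30 dyn/cm2 lay below all static ones, with a log2 fold change of -0.71 ± 0.13 (SE). At 2 dyn/cm2 the value was 0.031 ± 0.12, and from 2 to 30 dyn/cm2 it was -0.75 ± 0.12. In orpk the levels did not change one way with shear: they were 2.07-fold higher at 2 dyn/cm2 than in static culture and 8.92-fold lower at 30 dyn/cm2 than in static culture. The log2 fold changes were 1.05 ± 0.08 and -3.16 ± 0.12. From 2 to 30 dyn/cm2, Txnip was 18.5-fold lower in orpk (-4.21 ± 0.11), and 27 of 13058 genes had a lower value in that comparison.

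The difference between genotypes depended on shear. Txnip was 4.53-fold higher in orpk than in WT in static culture (2.18 ± 0.10) and 9.16-fold higher at 2 dyn/cm2 (3.20 ± 0.10). At 30 dyn/cm2 the orpk libraries lay just below the WT ones, at 18.7 ± 1.38 against 22.4 ± 1.4 CPM (-0.27 ± 0.15). The shear difference of 30 dyn/cm2 against static was larger by -2.44 ± 0.18 in orpk than in WT on the log2 scale, and that of 30 against 2 dyn/cm2 by -3.46 ± 0.18. Without orpk 2 dyn/cm2 replicate 2, the highest Txnip library, the orpk values were 0.93 ± 0.05 for 2 dyn/cm2 against static and -4.09 ± 0.06 for 30 against 2 dyn/cm2.

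**Figure D1:**
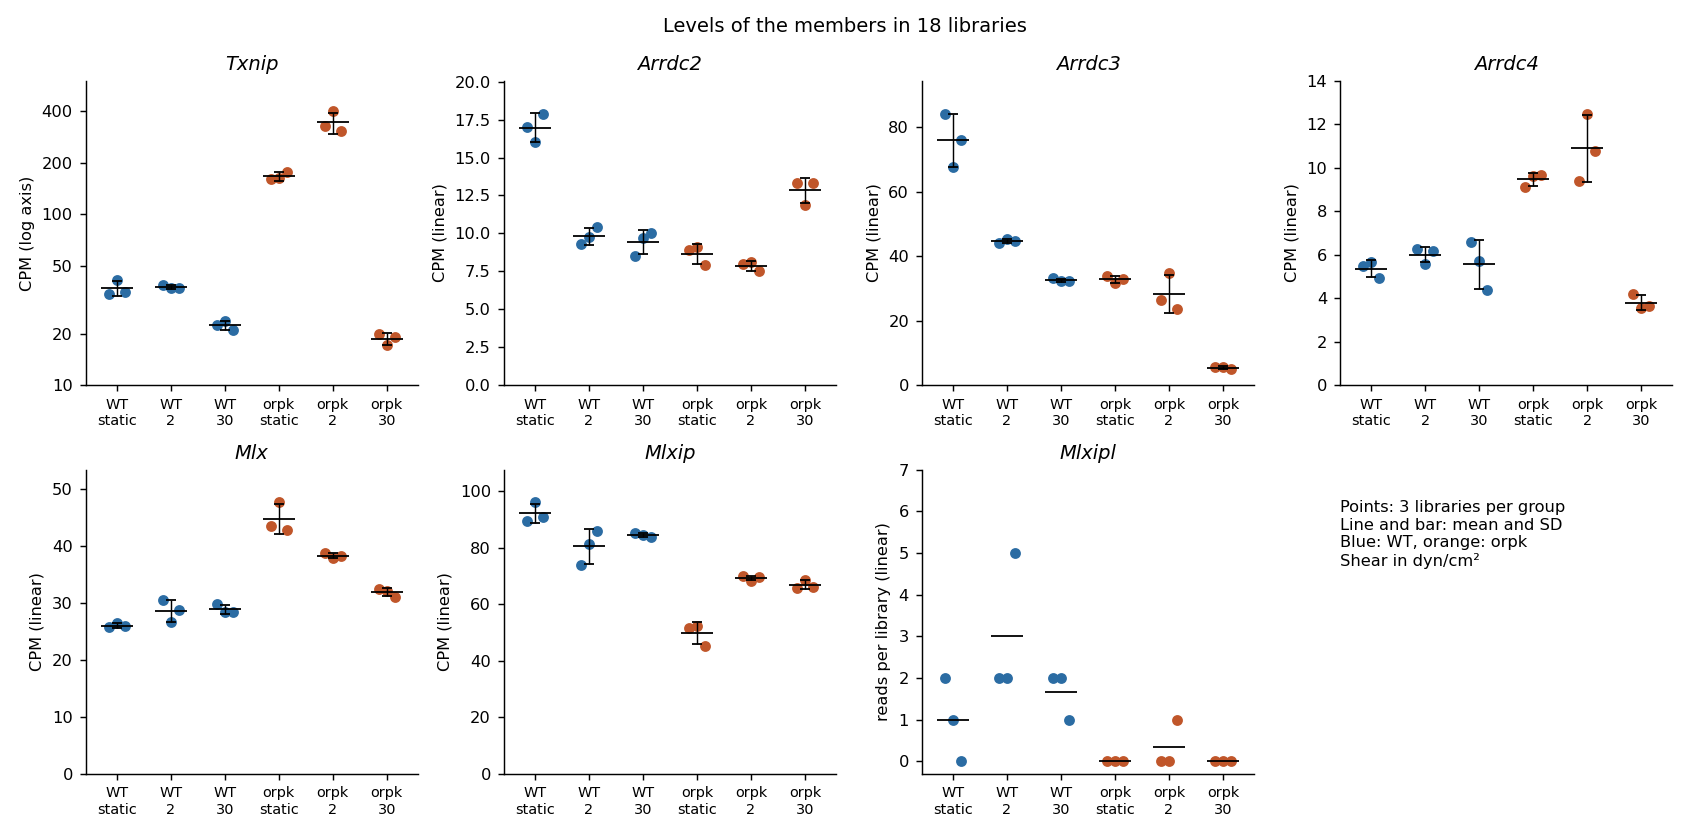
Level of each gene in 18 libraries by group, in CPM (log axis for Txnip, linear from 0 for the others) and in reads per library for Mlxipl; points are libraries, lines and bars are the mean and SD of 3. Txnip ran from 17.1 to 399 CPM and was highest in orpk at 2 dyn/cm2, while Arrdc3 was lowest in orpk at 30 dyn/cm2.

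Arrdc4 (ENSMUSG00000042659, GRCm38 chr7:68736995-68749241), the closest companion of Txnip among known targets of MondoA and itself linked to GLUT1 uptake, had the lowest mean level per kilobase of exon of the 4 arrestin-domain genes over the 18 libraries (1.7 CPM per kilobase against 3.38 to 33.4). In WT its libraries stood at 5.48, 5.67 and 4.94 CPM (static), 6.25, 5.59 and 6.19 CPM (2 dyn/cm2) and 6.59, 5.71 and 4.36 CPM (30 dyn/cm2). In orpk they stood at 9.13, 9.62 and 9.66 CPM, 9.39, 12.5 and 10.8 CPM, and 4.19, 3.57 and 3.64 CPM. All WT groups overlapped one another, whereas orpk at 30 dyn/cm2 lay below every other group. Scaling by library totals placed the 2 dyn/cm2 libraries above static without overlap in both genotypes.

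In orpk, Arrdc4 was lowest at 30 dyn/cm2, as Txnip was. At 30 dyn/cm2 it was 2.49-fold lower than in static orpk cells (-1.32 ± 0.14) and 2.87-fold lower than at 2 dyn/cm2 (-1.52 ± 0.14). At 2 dyn/cm2 against static orpk the value was 0.21 ± 0.11, with overlapping libraries. Orpk exceeded WT by 0.83 ± 0.13 in static culture and 0.86 ± 0.12 at 2 dyn/cm2, and lay below it at 30 dyn/cm2 (-0.54 ± 0.16). Its counts were 47 to 208 reads per library.

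Arrdc3 (ENSMUSG00000074794, GRCm38 chr13:80883384-80896042), which acts in the ubiquitination and trafficking of beta-adrenergic receptors, was lowest in orpk cells at 30 dyn/cm2, as Txnip was, and highest in static WT cells. WT libraries stood at 84.3, 67.7 and 76 CPM in static culture, 44.1, 45.5 and 44.7 CPM at 2 dyn/cm2 and 33.1, 32.2 and 32.4 CPM at 30 dyn/cm2. Orpk libraries stood at 34, 31.7 and 32.8 CPM in static culture, 26.3, 34.8 and 23.6 CPM at 2 dyn/cm2 and 5.54, 5.64 and 4.88 CPM at 30 dyn/cm2. The 3 WT groups did not overlap and were lower at each higher shear, and static orpk cells overlapped WT cells at 30 dyn/cm2.

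In WT, Arrdc3 was 1.7-fold lower at 2 dyn/cm2 (-0.77 ± 0.09) and 2.34-fold lower at 30 dyn/cm2 (-1.23 ± 0.09) than in static culture. In orpk it was 6.11-fold lower at 30 dyn/cm2 than in static culture (-2.61 ± 0.16). At 2 dyn/cm2 the orpk value was -0.21 ± 0.11 with overlap, and -0.40 ± 0.08 without replicate 2, the highest library of that group. Orpk was below WT throughout, by -1.21 ± 0.09 in static culture, -0.66 ± 0.10 at 2 dyn/cm2 and -2.60 ± 0.15 at 30 dyn/cm2. Without WT 2 dyn/cm2 replicate 1, the WT values at 2 dyn/cm2 against static were -0.75 for Arrdc3 and 0.011 for Txnip.

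Arrdc2 (ENSMUSG00000002910, GRCm38 chr8:70835129-70839720), another arrestin-domain protein, was higher at 30 dyn/cm2 than in static culture in orpk and lower in WT. WT libraries stood at 17, 16 and 17.9 CPM in static culture, 9.29, 9.73 and 10.4 CPM at 2 dyn/cm2 and 8.51, 9.71 and 10 CPM at 30 dyn/cm2. Orpk libraries stood at 8.91, 9.11 and 7.91 CPM, 8, 8.12 and 7.49 CPM, and 13.3, 11.9 and 13.3 CPM. Static WT cells were the highest group and orpk cells at 30 dyn/cm2 the next, with no overlap between them or with the rest.

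Flow at 30 dyn/cm2 went with a log2 fold change of -0.85 ± 0.09 in WT and 0.56 ± 0.10 in orpk, a difference of 1.42 ± 0.13 between genotypes. At 2 dyn/cm2 the values were -0.80 ± 0.09 and -0.14 ± 0.11, the latter with overlap. Orpk was 1.97-fold lower than WT in static culture (-0.98 ± 0.09) and 1.36-fold higher at 30 dyn/cm2 (0.44 ± 0.09), where scaling by library totals gave 0.13 and overlapping libraries.

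**Figure D2:**
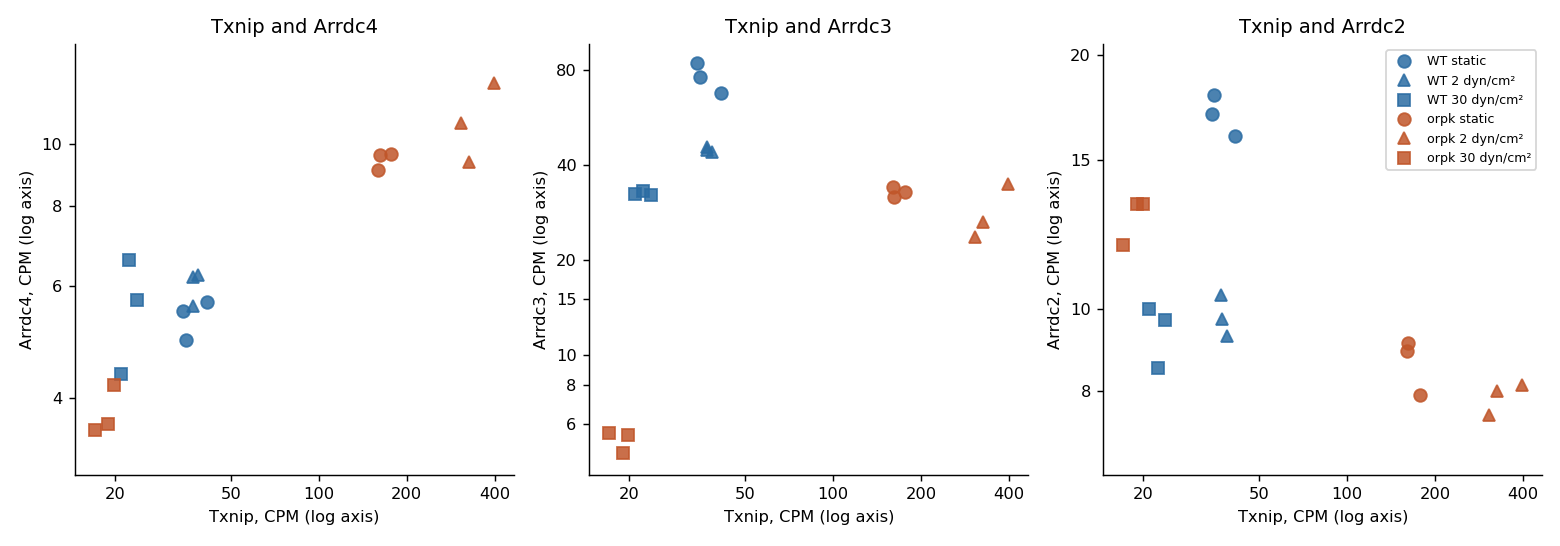
Txnip (x axis) against Arrdc4, Arrdc3 and Arrdc2 (y axes), all in CPM on log axes, 1 point per library, colour for genotype and symbol for shear. Over the 18 libraries Pearson's r of log2 CPM with Txnip was 0.937 for Arrdc4, 0.235 for Arrdc3 (0.905 after removing genotype means) and -0.599 for Arrdc2. WT points of Arrdc3 at 2 dyn/cm2 lie below the static ones at like Txnip levels.

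Across the 18 libraries, Pearson correlations of log2 CPM with Txnip were 0.937 for Arrdc4, 0.235 for Arrdc3 and -0.599 for Arrdc2. After each genotype's mean was taken away they were 0.948, 0.905 and -0.512. Points share their group and, within a library, its scaling, so these values describe 6 groups more than 18 independent cultures. The plot of Txnip against its relatives shows the offset of Arrdc3 between genotypes.

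Mlx (ENSMUSG00000017801, GRCm38 chr11:101087277-101092207), the partner both glucose sensors need, varied little in WT. It stood at 25.7, 26.5 and 25.9 CPM in static WT cells, 30.5, 26.6 and 28.8 CPM at 2 dyn/cm2 and 29.8, 28.5 and 28.4 CPM at 30 dyn/cm2. In orpk it stood at 43.6, 47.7 and 42.9 CPM, 38.8, 37.9 and 38.3 CPM, and 32.5, 32.1 and 31.1 CPM. The orpk groups were lower at each higher shear without overlap, while both WT flow groups lay slightly above static.

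Orpk exceeded WT by 0.79 ± 0.06 in static culture and 0.42 ± 0.06 at 2 dyn/cm2. At 30 dyn/cm2 it exceeded WT by 0.14 ± 0.06, and library totals turned this to -0.17. The difference of 30 dyn/cm2 against static was 0.15 ± 0.06 in WT and -0.49 ± 0.06 in orpk. Mlx overlaps Psmc3ip on the other strand, which is also in the table, and use of the strand in counting is not given in the sources used here.

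Mlxip (ENSMUSG00000038342, GRCm38 chr5:123394798-123457932), which encodes MondoA, was higher in WT than in orpk at each shear. WT libraries stood at 89.4, 96 and 90.8 CPM in static culture, 73.9, 81.4 and 86 CPM at 2 dyn/cm2 and 85.2, 84.6 and 83.8 CPM at 30 dyn/cm2. Orpk libraries stood at 51.6, 52.3 and 45.3 CPM, 69.8, 68.3 and 69.6 CPM, and 65.8, 68.6 and 66.1 CPM. Static orpk cells were the lowest group and all WT libraries lay above all orpk libraries.

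Orpk was below WT by -0.89 ± 0.05 in static culture, -0.22 ± 0.05 at 2 dyn/cm2 and -0.34 ± 0.05 at 30 dyn/cm2. Shear of 30 dyn/cm2 went with 0.42 ± 0.06 in orpk and -0.12 ± 0.05 in WT, where scaling by library totals gave -0.035 and overlapping libraries. The group with the most Txnip, orpk at 2 dyn/cm2, had 38.3 ± 0.436 CPM of Mlx and 69.2 ± 0.846 CPM of Mlxip. The group with the least, orpk at 30 dyn/cm2, had 31.9 ± 0.733 and 66.8 ± 1.54 CPM. Between these 2 groups Mlx differed by 1.2-fold, Mlxip by 1.04-fold and Txnip by 18.5-fold. Over all groups the means of Mlx ran from 26 CPM in static WT to 44.7 CPM in static orpk cells. A link between these levels was not tested, and RNA levels do not show how much of the heterodimer is in the nucleus. Over the 18 libraries Mlx and Mlxip correlated at -0.901, and Txnip at 0.755 with Mlx and -0.525 with Mlxip.

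Mlxipl (ENSMUSG00000005373, GRCm38 chr5:135089890-135138382), which encodes ChREBP, the sensor known from liver and fat, was close to undetected. It had 18 reads in the 18 libraries and 0 in 9 of them. By group it had 3, 9 and 5 reads in WT (static, 2 and 30 dyn/cm2) and 0, 1 and 0 in orpk. The 9 reads correspond to 0.168 CPM (exact Poisson 95% interval 0.0769 to 0.319). A count of 0 allows up to 3 reads, or 0.0695 CPM in static orpk cells and 0.0745 CPM in orpk cells at 30 dyn/cm2. It failed the filter on low counts and is given no fold change.

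Per kilobase of annotated exon, the members had like levels in static WT cells apart from Arrdc2, Arrdc4 and Mlxipl. Mlx was at 13, Arrdc3 at 12.1, Txnip at 11.8 and Mlxip at 11.1 CPM per kilobase, while Arrdc2 was at 5.26 and Arrdc4 at 1.33. In orpk at 2 dyn/cm2 Txnip reached 110 CPM per kilobase against 19.2 for Mlx, the next member. In orpk at 30 dyn/cm2 Mlx was first at 16 and Txnip at 5.98, with Arrdc4 at 0.942 and Arrdc3 at 0.855 CPM per kilobase.

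**Figure D3:**
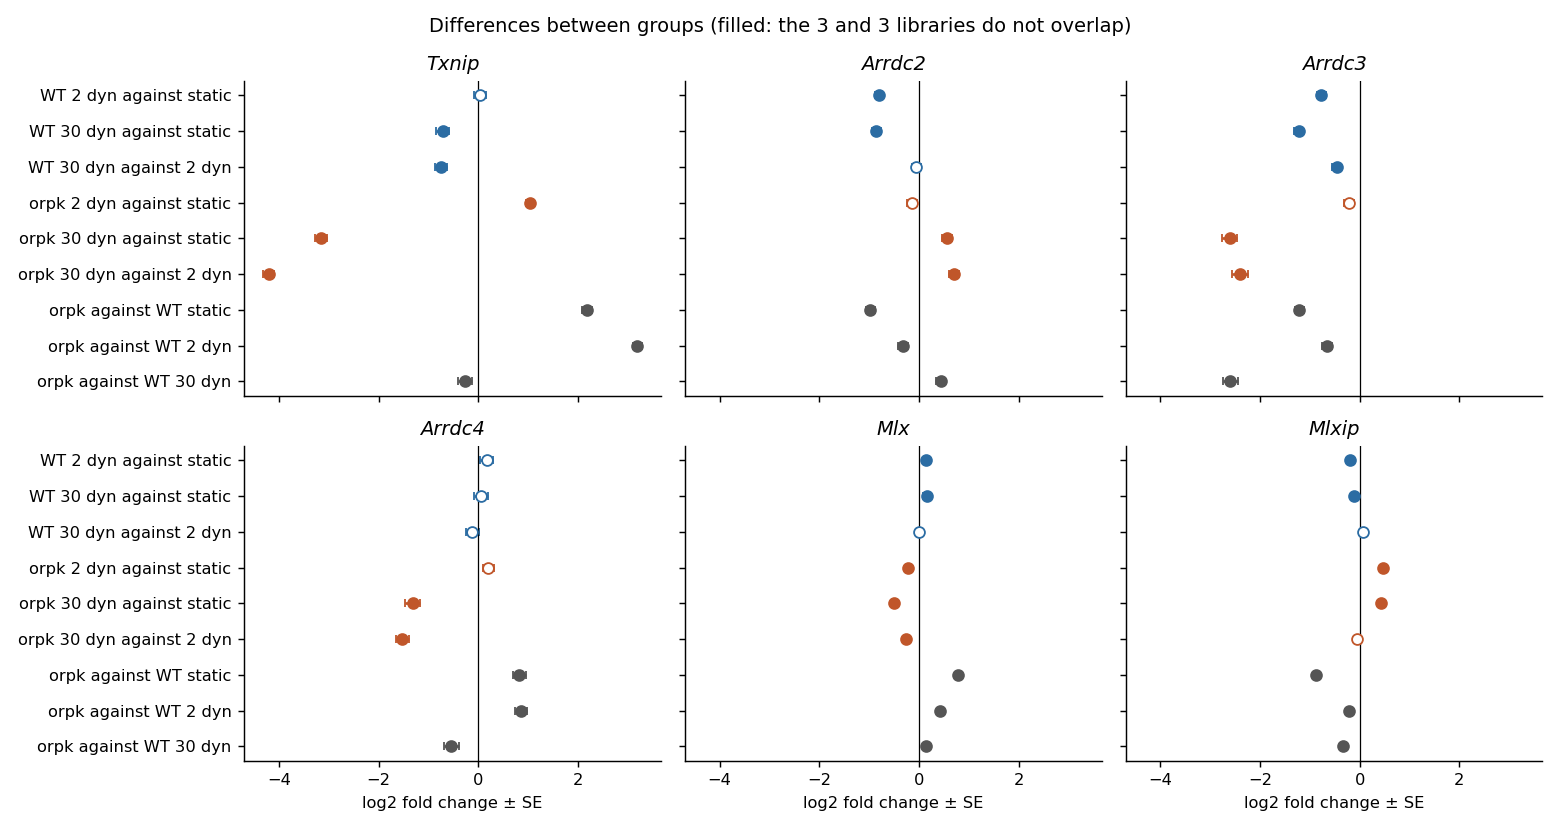
Log2 fold change ± SE of the 6 genes above the filter in 9 comparisons, shear within each genotype and genotype at each shear; filled points mark comparisons in which the 3 and 3 libraries do not overlap. Txnip spans -4.21 to 3.20, and Arrdc2 and Mlxip lie above 0 in orpk at 30 dyn/cm2 against static where Txnip, Arrdc3, Arrdc4 and Mlx lie below it.

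In most comparisons nearly all members separated the groups, and so did most genes. In orpk at 30 dyn/cm2 against static, 6 of the 6 tested members did not overlap, 2 higher and 4 lower, beside 73.3% of all tested genes, 38.3% higher and 35% lower. In WT, 5 of 6 did not overlap at 30 dyn/cm2 (71.1% of genes) and 4 of 6 at 2 dyn/cm2 (64.3%), against static. Between 2 and 30 dyn/cm2, 2 of 6 did not overlap in WT (42.9%) and 5 of 6 in orpk (68.2%). For orpk at 2 dyn/cm2 against static the count was 3 of 6 (65.3%). Between genotypes 6 of 6 did not overlap at each shear, beside 88.1%, 86.8% and 88.6% of genes (static, 2 and 30 dyn/cm2). These shares stand near the background and say nothing particular to the members, which were chosen with these values known.

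Among the 5 genes whose levels were most like those of Txnip over the 18 libraries, of 10442 compared, were Pak3 (r = 0.984), Acat1 (0.962), Parp10 (0.96) and Ddx58 (0.949). Acat1, a mitochondrial thiolase of ketone and isoleucine metabolism, stood at 111 CPM in static orpk cells, 117 CPM at 2 dyn/cm2 and 56.8 CPM at 30 dyn/cm2. In WT it stood at 75.8, 80.1 and 69.2 CPM. With genotype means removed, the nearest were Knstrn (0.986), Ech1 (0.985), Acat1 (0.98), Pde5a (0.979) and Runx1t1 (0.978), the last with 0 CPM in all WT groups. By Spearman's rho, Acat1 alone of the first 5 remained among the first 5 by level, and Knstrn and Acat1 after removal of genotype means.

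Arrdc4 was nearest to Rab30 (0.962), Acat1 (0.961) and Txnip itself (0.937). Arrdc3 was nearest to Ank3 (0.979), Magi3 (0.979) and Col4a6 (0.973), and Arrdc2 to Foxk2 (0.977), Ntmt1 (0.958) and Csnk1g2 (0.952). Mlx was nearest to Tmem158 (0.975), Daam2 (0.973) and Hdhd3 (0.969), and Mlxip to Zfp398 (0.984), Cramp1l (0.983) and Smchd1 (0.98). Acat1 was thus listed for both Txnip and Arrdc4. By Spearman's rho, 2 of these 3 remained among the first 3 for Arrdc4 (Rab30 and Acat1), Arrdc2 (Foxk2 and Ntmt1) and Mlx (Tmem158 and Hdhd3), and 0 of 3 for Arrdc3 and Mlxip. These are descriptions over libraries that share groups, with no p-value.

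The genes around the pathway were then tested by edgeR's quasi-likelihood test with Benjamini-Hochberg adjustment over all 13058 genes. Their lists were chosen with earlier results of these data known, and some genes were named after their values were seen. The adjusted p of these genes are therefore descriptions and no independent evidence. At 30 dyn/cm2 against static, 66.9% of all genes passed in WT (34.1% higher, 32.7% lower) and 69.9% in orpk (36.5% higher, 33.3% lower). The median log2 fold change of all genes was 0.004 in WT and 0.015 in orpk. Of the genes that passed in WT, 51% were higher, and 60.7% under scaling by library totals. Counts for each list are read beside these shares.

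Glucose transport and first phosphorylation, the step that makes the signal MondoA senses, was mostly lower in both genotypes. Of 14 tested genes, 10 were lower and 2 higher in WT (median -0.59), and 8 lower and 2 higher in orpk (median -0.41). The count of 2 higher in WT was 1 when any one library of the 2 groups other than static replicate 2 was left out. Slc2a1, which encodes GLUT1, fell from 406 ± 23.5 to 45.5 ± 2.36 CPM in WT (-3.16 ± 0.05, adjusted p = 6.79e-40). In orpk it fell from 1030 ± 19.3 to 214 ± 5.01 CPM (-2.27 ± 0.04, adjusted p = 5.37e-37).

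Hk1 and Hk2, the hexokinases that phosphorylate glucose, fell in WT (-1.19 ± 0.04 and -1.79 ± 0.04) and in orpk (-1.84 ± 0.04 and -1.34 ± 0.04). Gpi1, which converts glucose-6-phosphate to fructose-6-phosphate, was 2.83-fold lower in WT and 4.42-fold lower in orpk. Adjusted p in orpk were 1.2e-32, 2.03e-28 and 5.18e-38. Slc2a6, a glucose transporter of lysosomes, rose in orpk (1.74 ± 0.07, adjusted p = 6.73e-24). Slc2a3, which encodes GLUT3, fell in orpk (-2.69 ± 0.05), as did Slc2a4, which encodes GLUT4 (-2.16 ± 0.41, from 1.14 to 0.25 CPM). In WT Slc2a3 stood at -1.37 ± 0.52 (adjusted p = 0.0228), and no longer passed without static replicate 2 (0.0742) or 30 dyn/cm2 replicate 3 (0.142). Its WT level was 0.409 CPM in static culture (19 reads) and 0.154 CPM at 30 dyn/cm2 (8 reads).

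In orpk at 2 dyn/cm2, where Txnip was highest, Slc2a1 was at 178 ± 9.27 CPM (-2.53 ± 0.04 against static, adjusted p = 1.41e-37). Hk2 was at 31.8 ± 1.51 CPM there, from 205 ± 2.54 CPM in static orpk cells (-2.69 ± 0.05, adjusted p = 1.45e-36). At 30 dyn/cm2 Hk2 was higher than at 2 dyn/cm2, at 81.2 ± 1.67 CPM (1.35 ± 0.05, adjusted p = 3.14e-25). Slc2a1 was higher by 0.27 ± 0.04 (adjusted p = 3.34e-07). Txnip was at 344 CPM in the 2 dyn/cm2 group and 18.7 CPM in the 30 dyn/cm2 group, and a link between these differences was not tested. In the same comparison Hk1 was lower, at 133 ± 0.697 against 228 ± 14.1 CPM (-0.78 ± 0.04, adjusted p = 2.84e-19). So was Gpi1, at 195 ± 3.42 against 305 ± 7.59 CPM (-0.65 ± 0.04, adjusted p = 1.31e-19). Of the 14 genes, 5 were higher and 6 lower in that comparison, in which 63.6% of all genes passed (32.1% higher, 31.5% lower). Of the genes that passed there, 50.4% were higher, and 34.4% under scaling by library totals.

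Known carbohydrate response targets of MondoA and ChREBP, many of them lipogenic enzymes, were mostly lower in WT, and in orpk more of them were higher than lower. In WT at 30 dyn/cm2 against static, 12 of 19 tested targets were lower and 4 higher (median -0.67). In orpk 3 were lower and 9 higher (median 0.13). Some listed targets were near the floor in 1 genotype: Pklr had at most 3 reads in any orpk group and Rgs16 had 0 in every WT group. Whether MondoA or ChREBP acted on these genes here was not tested. In the test of the difference between genotypes, 11 of 19 passed as higher in orpk and 2 as lower (median 1.05), where 57.5% of all genes passed (30.6% higher, 26.9% lower) and the median was 0.005. Of the genes that passed there, 53.2% were higher, and 42.8% under scaling by library totals. The 2 lower were 1 without WT static replicate 3, orpk static replicate 3 or orpk 30 dyn/cm2 replicate 1, and 0 without WT 30 dyn/cm2 replicate 3 or orpk 30 dyn/cm2 replicate 2.

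Scd1, the stearoyl-CoA desaturase, went from 1120 ± 2.14 to 306 ± 7.28 CPM in WT (-1.88 ± 0.03) and from 460 ± 3.66 to 784 ± 14 CPM in orpk (0.77 ± 0.03). Acly, which makes cytosolic acetyl-CoA, changed by -0.72 ± 0.03 in WT and 0.90 ± 0.03 in orpk. The differences between genotypes were 2.65 ± 0.05 for Scd1 (adjusted p = 6.21e-36) and 1.62 ± 0.05 for Acly (adjusted p = 4.02e-29). Fasn, the fatty acid synthase, fell in WT (-1.25 ± 0.05, adjusted p = 1.1e-17) and stood at -0.026 ± 0.05 in orpk (adjusted p = 0.647).

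Ppp1r3b, a glycogen-targeting subunit of a phosphatase, fell in both genotypes (-2.43 ± 0.21 in WT and -2.90 ± 0.07 in orpk, adjusted p = 3.68e-13 and 7.68e-32), as did Acacb, the mitochondrial acetyl-CoA carboxylase (-1.32 ± 0.12 in orpk, -2.45 ± 0.07 in WT). Me1, the malic enzyme, rose in orpk (0.80 ± 0.05, adjusted p = 4.2e-18) and stood at -0.039 ± 0.05 in WT (adjusted p = 0.531). In orpk Fgf21, a metabolic hormone, rose (2.30 ± 0.28) and Khk, the ketohexokinase of fructose metabolism, fell (-0.91 ± 0.10). Fgf21 averaged 0.691 CPM in static orpk cells (30 reads) and 3.46 CPM at 30 dyn/cm2 (139 reads). WT means moved the same way, from 11.9 to 25.4 CPM for Fgf21 and from 10.1 to 7.24 CPM for Khk. Klf10, a transcription factor induced by carbohydrate, rose by 0.70 ± 0.05 in WT and 0.54 ± 0.05 in orpk. In static culture 6 of the 19 targets were higher and 11 lower in orpk than in WT, where Txnip and Arrdc4 were higher in orpk and 87.8% of all genes passed (44.4% higher, 43.4% lower). Of those that passed, 50.5% were higher in orpk, and 41.3% under scaling by library totals.

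**Figure D4:**
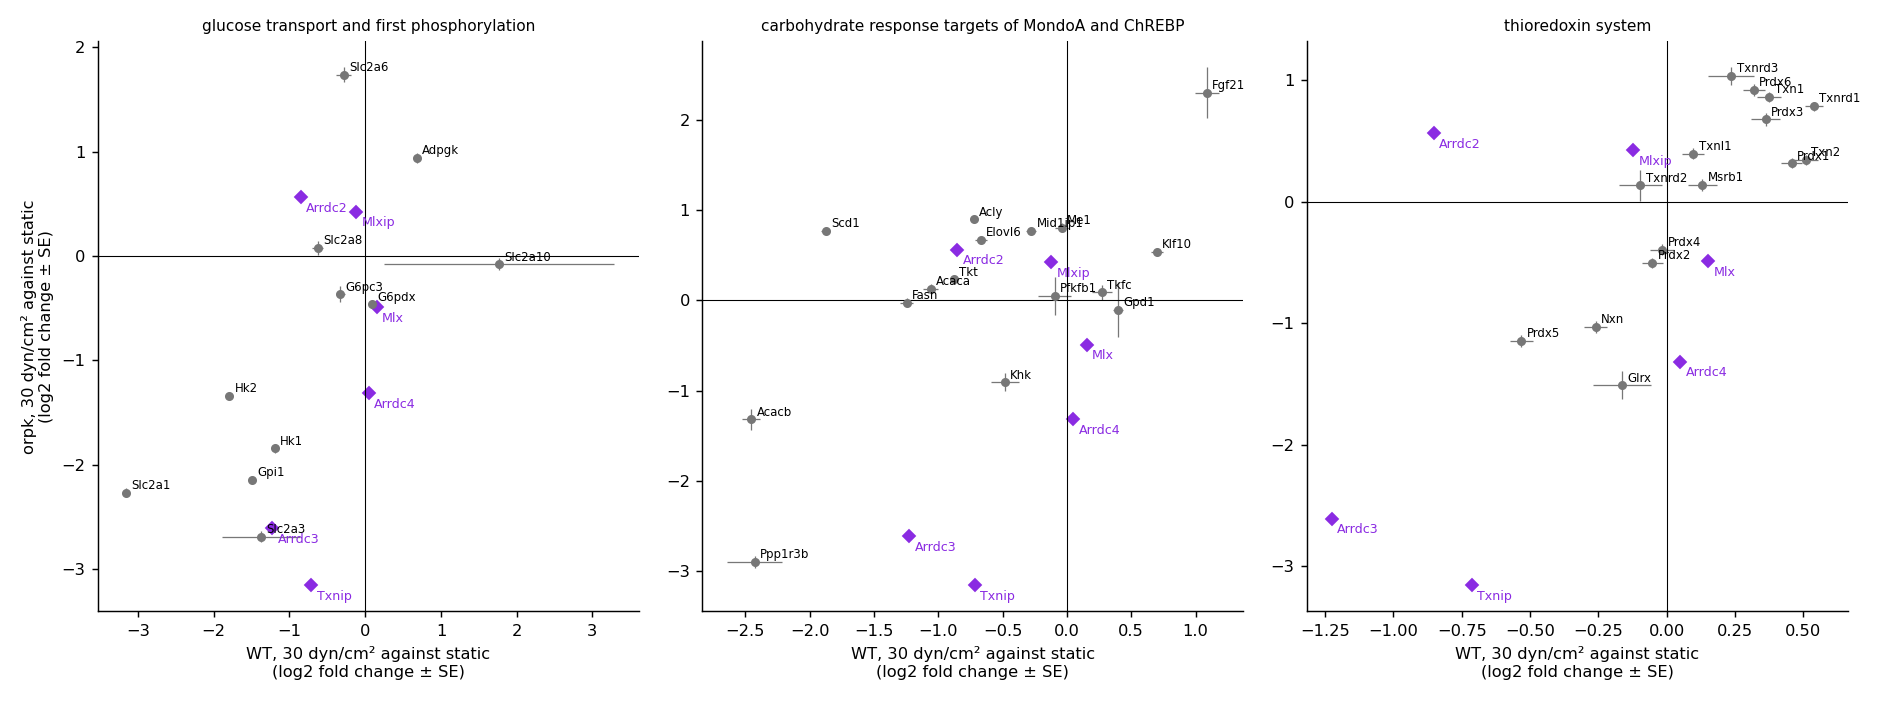
Log2 fold change ± SE at 30 dyn/cm2 against static in WT (x axis) and orpk (y axis) for tested genes of 3 lists averaging at least 5 CPM over the groups (grey) with the 6 members (purple); axis ranges differ between panels. Slc2a1 lies low on both axes, Scd1 and Acly lie below 0 in WT and above 0 in orpk, and Txnip lies at -0.71 and -3.16.

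The thioredoxin system, whose reduced thioredoxin Txnip binds, had more genes higher than lower at 30 dyn/cm2 against static. Of 15 tested genes, 9 were higher and 2 lower in WT (median 0.13) and 9 higher and 5 lower in orpk (median 0.32). The 9 higher in WT were as few as 6 with 1 library left out and as few as 7 under the other alternatives. Txn1, thioredoxin itself, rose by 0.38 ± 0.04 in WT (adjusted p = 1.05e-09) and 0.86 ± 0.04 in orpk (adjusted p = 5.49e-20), reaching 515 ± 24.4 CPM in orpk. Its reductases Txnrd1 (0.54 ± 0.03 in WT, 0.79 ± 0.04 in orpk) and Txnrd3 (1.03 ± 0.07 in orpk) also rose. Prdx5, a peroxiredoxin, fell in WT (-0.53 ± 0.04, adjusted p = 3.94e-14) and in orpk (-1.15 ± 0.05, adjusted p = 1.88e-24). In WT the mitochondrial thioredoxin Txn2 (0.51 ± 0.04) and Prdx1 (0.46 ± 0.04) rose, and in orpk Nxn, nucleoredoxin, fell (-1.03 ± 0.05). The means of these genes moved the same way in the other genotype. In orpk Txn2 went from 138 to 176 CPM and Prdx1 from 290 to 361 CPM, and in WT Nxn went from 115 to 95.8 CPM.

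Glrx, a glutaredoxin, had its orpk levels in the order of those of Txnip and Arrdc4. It stood at 16.4 ± 0.593 CPM in static orpk cells, 17.8 ± 1.11 CPM at 2 dyn/cm2 and 5.73 ± 0.359 CPM at 30 dyn/cm2. From 2 to 30 dyn/cm2 it fell by 1.63 on the log2 scale (SE 0.11, adjusted p = 1.6e-16). In WT at 30 dyn/cm2 against static it stood at -0.16 ± 0.11 (adjusted p = 0.174), and the difference between genotypes was -1.35 ± 0.16 (adjusted p = 1.25e-09). Leaving out WT static replicate 2 gave -0.27 with an adjusted p of 0.0327 in WT.

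Other proteins of the Myc, Max and Mlx network, which share the dimerisation domain of Mlx, numbered 6 higher and 3 lower of 10 in WT (median 0.24) and 2 higher and 4 lower in orpk (median -0.20). Mxi1, a Max partner that opposes Myc, fell in both, to 2.72-fold lower in WT and 5.26-fold lower in orpk (adjusted p = 6.81e-27 and 1.82e-31). Mxd4, a related repressor, rose in WT (0.37 ± 0.05) and fell in orpk (-0.47 ± 0.05), a difference of -0.84 ± 0.07 (adjusted p = 2.11e-14). Myc rose in both, by 0.76 ± 0.04 and 0.70 ± 0.05, and so did its relative Mycn (1.17 ± 0.21 and 2.10 ± 0.48). In orpk Mycn averaged 0.212 CPM in static culture (9 reads) and 0.924 CPM at 30 dyn/cm2 (37 reads). Mxd1, another Max partner, fell in orpk (-0.60 ± 0.11). Mycl stood at 0.38 ± 0.16 in WT (adjusted p = 0.0421), and did not pass without static replicate 1 or 3 or 30 dyn/cm2 replicate 2 or 3 (adjusted p from 0.0815 to 0.222).

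Among other arrestins and arrestin-fold proteins, 2 of 8 were higher and 3 lower in each genotype, with medians of -0.014 and 0.013. In WT the 2 higher were 1 when any one library other than static replicate 1 was left out. Arrb1, the beta-arrestin of receptor desensitisation, was 2.94-fold lower in WT and 2.49-fold lower in orpk (adjusted p = 2.2e-29 and 1.14e-24). Arrdc1, an arrestin-domain protein of vesicle budding, was lower in orpk than in WT in static culture (-1.83 ± 0.08, adjusted p = 3.84e-24), and fell in WT at 30 dyn/cm2 against static (-0.28 ± 0.06). In that comparison Vps26b, a retromer subunit, fell in both genotypes (-0.40 ± 0.05 in WT, -0.17 ± 0.04 in orpk) and Rgp1 rose in both (0.24 ± 0.05 and 0.29 ± 0.05). Arrb2, the other beta-arrestin, rose in orpk (0.20 ± 0.07).

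NEDD4-family ligases, the partners that arrestin-domain proteins recruit, were 6 lower and 1 higher of 8 in WT (median -0.21) and 2 lower and 4 higher in orpk (median 0.18). Nedd4l fell in both (-0.73 ± 0.04 and -0.42 ± 0.05), and Itch, which ubiquitinates Txnip, fell in WT (-0.41 ± 0.04, adjusted p = 2.23e-12). In orpk Smurf1 and Smurf2 rose by 0.77 ± 0.04 and 0.76 ± 0.04. Nedd4, the founding ligase, fell in both (-0.22 ± 0.03 and -0.64 ± 0.03), and Wwp1 fell in WT (-0.35 ± 0.05). The 1 higher in WT was Smurf1 (0.091 ± 0.04, adjusted p = 0.05), which no longer passed without static replicate 2 or 3 or 30 dyn/cm2 replicate 1 or 3.

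FOXO factors and their targets, which include regulators that can act on Txnip, were 8 lower and 3 higher of 14 in WT (median -0.32) and 7 lower and 5 higher in orpk (median -0.21). Ccng2, a cyclin induced by FOXO, fell from 332 ± 23.8 to 53.5 ± 2.84 CPM in orpk (-2.64 ± 0.07) and also in WT (-1.27 ± 0.06), a difference of -1.37 ± 0.09 (adjusted p = 7.98e-11). Sesn3, a stress sensor, rose in WT (0.24 ± 0.04) and fell in orpk (-0.77 ± 0.05), and from 2 to 30 dyn/cm2 in orpk it fell by 1.25 on the log2 scale. Foxo3 itself fell in both (-0.97 ± 0.05 and -1.11 ± 0.05). Pik3ip1, an inhibitor of PI3 kinase, rose in both (0.50 ± 0.10 and 0.46 ± 0.07). In WT Cited2, a coregulator, fell by 1.20 on the log2 scale and Foxo6 by 0.71. In orpk Sesn1, a relative of Sesn3, fell (-1.10 ± 0.06) and Irs2, an insulin receptor substrate, rose (0.79 ± 0.05). In the other genotype the means of Cited2 (orpk, 69 to 48.7 CPM) and Sesn1 (WT, 48.4 to 31.5 CPM) moved the same way. Those of Foxo6 (orpk, 2.9 to 3.56 CPM) and Irs2 (WT, 30.4 to 25 CPM) moved the other way.

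The glucocorticoid receptor and its targets were 5 lower and 1 higher of 8 in WT (median -0.26) and 4 lower and 3 higher in orpk (median -0.33). Fkbp5, a co-chaperone of the receptor, rose in orpk from 43.2 ± 1.29 CPM in static culture to 65.9 ± 2.97 CPM at 2 dyn/cm2 and 142 ± 4.37 CPM at 30 dyn/cm2 (1.72 ± 0.05, adjusted p = 6.61e-31). Tsc22d3, which encodes GILZ, rose in orpk (1.49 ± 0.06) and fell in WT (-0.41 ± 0.05). The differences between genotypes were 1.73 ± 0.06 for Fkbp5 and 1.89 ± 0.08 for Tsc22d3, with adjusted p of 7.03e-26 and 2.01e-23. Other targets fell in orpk. Mt1, a metallothionein, went from 892 ± 11.6 to 311 CPM (-1.52 ± 0.06, adjusted p = 1.69e-13) and Mt2 from 188 ± 4.18 to 95.1 ± 5.02 CPM. Dusp1, a phosphatase of MAP kinases, and Per1, a clock gene, fell in WT (-0.59 ± 0.11 and -0.71 ± 0.06) and in orpk. Sgk1, a serum and glucocorticoid induced kinase, rose in WT from 18.1 ± 2.01 to 56 ± 1.22 CPM (1.63 ± 0.06, adjusted p = 5.27e-25) and in orpk from 70.8 ± 2.55 to 146 ± 2.88 CPM (1.04 ± 0.05, adjusted p = 7.68e-23).

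Energy sensing by AMPK and mTORC1 was 6 lower and 4 higher of 15 in WT (median -0.10) and 8 lower and 6 higher in orpk (median -0.12). The 8 lower in orpk were 6 or 7 when any one library of the 2 groups was left out. Ddit4, an mTORC1 inhibitor induced by stress, was 3.86-fold lower in WT and 2.28-fold lower in orpk (adjusted p = 8.27e-34 and 1.46e-24). Prkaa2, a catalytic subunit of AMPK, fell in WT (-1.07 ± 0.11) and rose in orpk (0.81 ± 0.16), a difference of 1.88 ± 0.19 (adjusted p = 4.49e-11). Eif4ebp1, a target of mTORC1 that restrains translation, fell in WT (-0.68 ± 0.04), and the AMPK subunit Prkab1 rose (0.51 ± 0.05). Their orpk means went from 178 to 236 CPM for Eif4ebp1 and from 39 to 46.1 CPM for Prkab1. In orpk Rheb, the activator of mTORC1, rose (0.96 ± 0.04), as did the AMPK subunit Prkag2 (0.72 ± 0.08). Of the NLRP3 inflammasome, to which Txnip has been linked, 3 of 7 genes were tested, with 1 higher and 1 lower in WT and 1 higher and 2 lower in orpk. Nlrp3 itself, Pycard, Casp1 and Il1b failed the filter on low counts, with at most 19 reads in any group. Il18, an inflammasome-processed cytokine, rose in WT (1.44 ± 0.21) and fell in orpk (-0.79 ± 0.28, adjusted p = 0.0117). Nek7, which activates NLRP3, fell in WT (-0.37 ± 0.04) and rose in orpk (0.55 ± 0.04), and Gsdmd, the pore former, fell in orpk (-0.50 ± 0.07). Gsdmd had at most 2 reads in any WT group.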

How the data were processed

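RNA of 18 libraries was read as single 50-nt ends from a stranded mRNA kit, per the labels' protocols. Per the submitters' processing notes, the tools were CASAVA 1.8.2, STAR 2.4 and featureCounts 1.4.6 on GRCm38. The authors deposited whole-number read counts per gene and library. Strand setting and treatment of reads with several matches are not given in the sources used here. Txnip, Arrdc3, Mlx, Mlxip and Mlxipl each overlap another annotated gene on the other strand, so reads of the 2 strands may be mixed.

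Groups came from the labels. In edgeR 4.0.16 (R 4.3.3) the filterByExpr defaults kept 13058 genes, which were scaled by trimmed mean of M-values and fitted as 6 group means by the robust quasi-likelihood method (12 residual degrees of freedom, biological coefficient of variation 3.28%). The 12 contrasts were tested at an adjusted p of 0.05, and SE is the log2 fold change over the root of F. No separate cultures are named for replicates, so p-values reflect only how these libraries vary, possibly for technical reasons. Poisson intervals and zero-count limits reflect sampling of reads alone. Alternatives were DESeq2 1.42.0, RLE size factors, library totals, a replicate block, no filter on low counts, a fit of the compared groups only, and leaving out each library. The code was tested on simulated data.

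Members and gene lists were chosen with earlier results of these data known. Named were all members. For 30 dyn/cm2 against static in each genotype, up to 4 genes of each list past the threshold were named, those with the largest changes. They averaged at least 1 CPM over all 18 libraries, so a gene could be below that in the genotype compared, as Slc2a3 in WT. Other list genes, and all list genes in other comparisons, were named for their role after their values were seen. Likeness used Pearson's r of log2 CPM for genes averaging 5 CPM or more: the first 5 for Txnip and the first 3 for each other member. Of these, 1 gene is not reported here. Gene positions are GENCODE M21, and promoters are RefSeq GRCm38.p6, in which all 7 members matched.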

Additional observations from a re-analysis of the deposited data

Results flagged for a closer look

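Some members moved in opposite directions with shear in the 2 genotypes, every library of one genotype's flow group lying above its static group and every library of the other's below. The differences of direction were not tested, since these genes were chosen with their values known. At 30 dyn/cm2 against static, the orpk log2 fold change minus the WT one was 1.42 for Arrdc2 (higher in orpk, lower in WT), -0.64 for Mlx (lower in orpk, higher in WT) and 0.55 for Mlxip (higher in orpk, lower in WT). At 2 dyn/cm2 against static it was -0.37 for Mlx and 0.67 for Mlxip, in the same directions. Under scaling by library totals, the WT libraries of Mlxip overlapped at both shear levels. For Mlx in WT at 2 dyn/cm2, the nearest libraries were at 26.6 and, in static culture, 26.5 CPM. How many of all genes moved in opposite directions in this way was not counted. Against static, 71.1% (WT) and 73.3% (orpk) of all tested genes did not overlap at 30 dyn/cm2, and 64.3% and 65.3% at 2 dyn/cm2.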

How the results depend on the processing

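Over 72 pairs of a member and a comparison, alternatives other than library totals shifted the log2 fold change by at most 0.184. All 900 of these shifts were below the combined SD of the compared groups, the root of their summed squared SDs. Leaving out 1 of 3 libraries (540 values) or adding a replicate block can hardly exceed that spread, so the count is no test of robustness. The number of genes called stayed within 1.5 times of the main one in all 12 comparisons and alternatives. No pairing by replicate number was seen in the counts: over 45 same-numbered pairs of libraries the correlation of deviations had a median of 0.002. It ran from -0.052 to 0.055. With the replicate number as a block, Txnip stood at 1.04 (orpk 2 dyn/cm2 against static) and -3.16 (orpk 30 dyn/cm2 against static). No member moved beyond the combined SD. Of 18 libraries, 7 correlated best with their own number among the 3 numbers. These values describe the counts and cannot tell whether the samples were paired by design. Calls at 30 dyn/cm2 against static were 8722 with the block and 8731 without it in WT. The block moved 2 list counts beyond 1.5 times and ended 1 call of a named gene, Smurf1 in WT (0.091, adjusted p = 0.0537). Smurf1 also missed the threshold with RLE size factors (adjusted p = 0.116), no filter (0.0625) and DESeq2 (0.156), and Mycl in WT with RLE size factors (0.0528) and DESeq2 (0.152). List counts moved beyond 1.5 times in 34 cases by library totals, 13 by DESeq2, 11 by RLE size factors, 9 in the compared groups alone and 5 with no filter. Leaving out 1 library moved 108 list counts of that size and left 1692 within it.

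Scaling by library totals shifted the median of all genes from 0.006, 0.019 and 0.038 to -0.21, -0.20 and -0.28 for orpk against WT (static, 2 and 30 dyn/cm2). It shifted that median to 0.12 for WT 2 dyn/cm2 against static and to -0.12 for orpk 30 against 2 dyn/cm2. By library totals, orpk against WT in static culture gave 1.96 for Txnip, -1.19 for Arrdc2, -1.43 for Arrdc3, 0.61 for Arrdc4, 0.57 for Mlx and -1.10 for Mlxip. At 2 dyn/cm2 it gave 2.97 for Txnip, -0.54 for Arrdc2, 0.20 for Mlx and -0.44 for Mlxip. At 30 dyn/cm2 it gave -0.58 for Txnip, 0.13 for Arrdc2, -2.91 for Arrdc3, -0.65 for Mlxip and, reversed, -0.17 for Mlx. For shear it gave Mlx 0.25 and 0.24 in WT (2 and 30 dyn/cm2 against static), -0.12 in orpk (2 dyn/cm2 against static) and -0.38 in orpk (30 against 2 dyn/cm2). It gave Mlxip -0.035 in WT (30 dyn/cm2 against static) and -0.17 in orpk (30 against 2 dyn/cm2), and Arrdc2 0.59 in the last. Me1 in WT (30 dyn/cm2 against static) was reversed at 0.048. The cause was not tested.

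Depth limits Mlxipl, with 18 reads in all, and Arrdc4, with 47 to 208 reads per library.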
